A study of Mus musculus with 6 samples.

Results

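The cytosolic ribosomal protein genes were examined in bulk RNA-seq of the mouse substantia nigra. Members were the protein-coding genes whose symbol begins with Rpl, Rplp or Rps followed by a digit, plus Rpsa, with the Rps6k kinases and pseudogenes left out. The symbol rule found 86 of the 55335 genes counted, 52 of the large subunit and 34 of the small. A core set of 77 genes (46 large, 31 small) leaves out 9 paralogs and non-standard members: Rpl3l, Rpl7l1, Rpl10l, Rpl22l1, Rpl36al, Rpl39l, Rps27l, Rps27rt and Rps19bp1. Rps19bp1 encodes a binding partner of a ribosomal protein and was caught by its symbol alone. The series compares 3 control libraries, titled WT and with the genotype WT, against 3 libraries titled shDNAJB1, a short hairpin RNA against the chaperone gene Dnajb1. All 6 came from C57 mice. The labels do not give the age, the route and vector of the hairpin, the cells it reached, or whether the controls received a hairpin, and they do not say that each library is a separate animal. The p-values therefore reflect variation among 6 libraries, part or all of which could be technical.

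The cytosolic ribosome joins a small subunit, which reads the messenger RNA, with a large subunit, which forms peptide bonds and releases the chain through an exit tunnel. Each ribosomal protein is normally present once per subunit, except for the paired acidic proteins of the large-subunit stalk, so the cell needs the proteins of a subunit in matched amounts. Most of their messenger RNAs begin with a C and a run of pyrimidines, the terminal oligopyrimidine tract, through which mTOR signalling and the RNA-binding protein LARP1 control their translation and stability. In brain, ribosomal protein transcripts are found in neurons, glia and vessels alike.

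Start sites were examined because the pyrimidine tract is the sequence feature this gene family is best known for. The RefSeq promoter table held 66 of the 86 members, 57 of them core. A window of 30 bases was read around each annotated start, 10 before it and 20 from it onward, in build GRCm38.p6 and in the direction of the gene. A run was counted where a C was followed by at least 4 bases that were each C or T, with that first C within 5 bases of the start. The 12 members shown were chosen for their values, not as a sample of start sites: those whose groups did not overlap (Rps19, Rps27, Rps18, Rpl34), the large-subunit genes with the smallest unadjusted p (Rpl41, Rpl35a, Rpl37a, Rpl9, Rpl13a), the extremes of library shDNAJB1 1 (Rpl38, Rps15a) and Rps27rt, a retrogene copy of Rps27. The run is in capitals, from its first C within that limit, and Rps19, Rpl41, Rpl37a and Rpl9 had none. In Rpl34 the 5 bases before the capitals, up to the edge of the window, are pyrimidines too, so its run is cut by the limit.
Rps19: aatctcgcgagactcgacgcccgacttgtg
Rps27: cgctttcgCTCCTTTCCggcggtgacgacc
Rps27rt: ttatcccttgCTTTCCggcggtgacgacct
Rps18: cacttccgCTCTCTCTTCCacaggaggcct
Rpl34: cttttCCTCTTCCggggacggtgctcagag
Rpl41: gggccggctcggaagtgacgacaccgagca
Rpl35a: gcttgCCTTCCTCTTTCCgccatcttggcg
Rpl37a: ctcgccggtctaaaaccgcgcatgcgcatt
Rpl9: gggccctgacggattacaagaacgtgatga
Rpl13a: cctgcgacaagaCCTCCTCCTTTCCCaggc
Rpl38: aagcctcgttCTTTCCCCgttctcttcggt
Rps15a: tttctgccatCTTCCCTCgccggtgagtga

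Each window spans the end of the promoter and the first transcribed bases. Where the table gave several starts, as for Rps19, Rpl34 and Rpl35a, the start with the longest run is shown, or the first where none had a run. Rps19 is at chr7:24884582-24884611 on the plus strand and Rps27 at chr3:90213629-90213658 on the minus strand. Rps27rt is at chr9:114982720-114982749, minus, and Rps18 at chr17:33955646-33955675, minus. Rpl34 is at chr3:130730318-130730347, minus, and Rpl41 at chr10:128549149-128549178, minus. Rpl35a is at chr16:33056472-33056501, plus, and Rpl37a at chr1:72711250-72711279, plus. Rpl9 is at chr5:65391412-65391441, minus, and Rpl13a at chr7:45128726-45128755, minus. Rpl38 is at chr11:114668570-114668599, plus, and Rps15a at chr7:118116128-118116157, minus. Of the 57 core genes, 27 (47.4%) had a pyrimidine run at a start, against 21.4% of the 17425 other protein-coding genes in the table. The letters CTTT, searched on the gene strand anywhere in the window and often inside such a run, were found in 18 core genes (31.6%) against 12.1% of the others. A match is only a description of the annotated window, and a start that is annotated some bases away from the one used would hide a run.

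The libraries held 24541386 to 38468363 counts. Ribosomal protein members took 1.00%, 0.936% and 0.908% of all counts in controls 1 to 3 and 1.13%, 1.03% and 0.960% in shDNAJB1 1 to 3. Every core gene had at least 984 counts in every library. Dnajb1, the targeted gene, was at 59.8, 47.2 and 51.9 CPM (counts per 1000000 counts of a library, scaled by TMM) in the controls and at 44.3, 52.4 and 52.5 CPM in the libraries labelled shDNAJB1. Those values overlap, with a log2 difference of -0.09 ± 0.13 (SE; edgeR adjusted p = 0.909), so no lower Dnajb1 RNA was detected, and directions below refer to the labels. All 8 dopaminergic, 8 astrocyte and 12 oligodendrocyte markers had counts, so markers of the labelled tissue were present, and the summed dopaminergic markers ran from 930.1 to 3257 CPM over the 6 libraries.

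No ribosomal protein gene passed the test between the groups. Most were slightly higher in the libraries labelled shDNAJB1: 40 of the 50 tested large-subunit genes, with a median log2 difference of 0.06, and 28 of the 34 small-subunit genes, with a median of 0.10. Over all 18870 tested genes 50.8% were higher, with a median of 0.01. The positive medians did not remain without the library shDNAJB1 1: 21 of 50 large-subunit and 19 of 34 small-subunit genes were then higher, with medians of -0.01 and 0.01. The core genes lay between -0.07 (Rpl22) and 0.28 (Rps19), and the median SE of a core gene was 0.13, larger than the median difference. Shares of bulk RNA cannot tell fewer cells of a type from less RNA per cell.

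By edgeR's quasi-likelihood test, 0 of 84 tested members had an adjusted p under 0.05, and 0% of all 18870 genes did; the smallest adjusted p of any gene was 0.765. At an unadjusted p under 0.05, 1 member was higher, Rps19, against 3.04% of all genes, and 0 members were lower, against 3.33%. DESeq2 gave 0 members, higher or lower, at an unadjusted p under 0.05. Among the same 18870 genes it gave 526 higher and 643 lower. Of all 33190 genes in its fit, many with few counts, 1.93% were higher. At that threshold limma-voom gave 1 member, higher, against 3.42% of all genes. After adjustment limma-voom called 0 members, and DESeq2 called 0 members but 0.158% of its genes. The groups did not overlap, with shDNAJB1 higher, in 4 members (Rps19, Rps27, Rps18 and Rpl34), against 6.98% of all genes. The groups did not overlap, with shDNAJB1 lower, in 0 members, against 7.06%. Neither count of members is above its background share. In the other 80 tested members the groups overlapped.

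**Figure D1:**
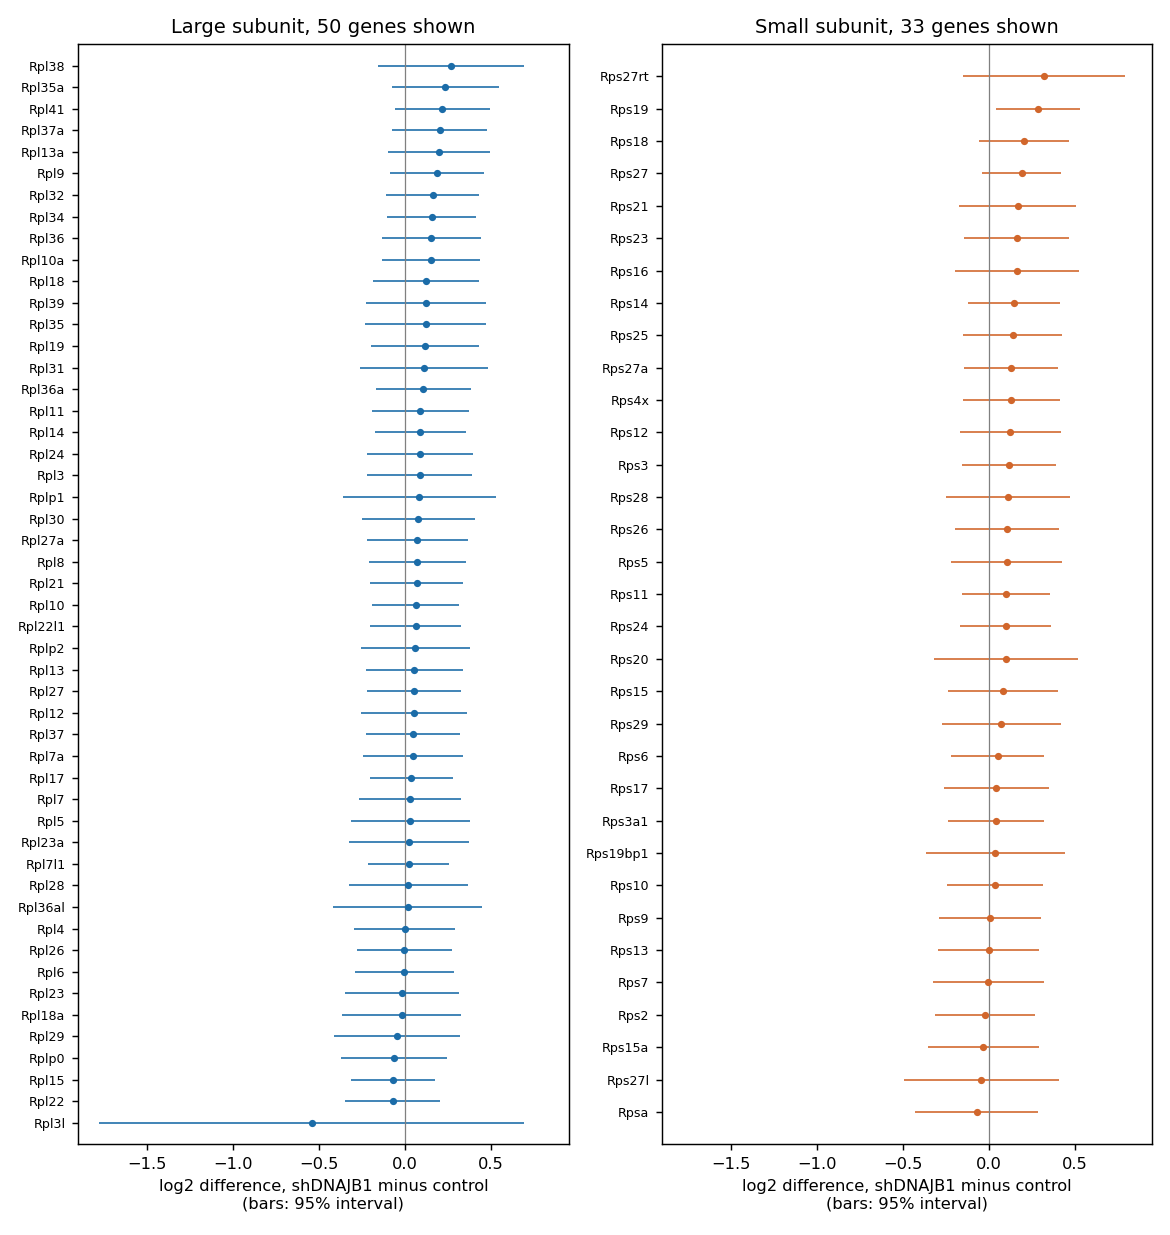
Log2 difference (shDNAJB1 minus control) of the tested ribosomal protein genes shown, large subunit left and small subunit right, with bars for the 95% interval. Intervals are not adjusted for the number of genes. That of Rps19, the member with the smallest unadjusted p, lies above 0, from 0.04 to 0.53 (edgeR adjusted p = 0.765). Rpl3l, the lowest, has an interval from -1.78 to 0.69.

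Rps19, which encodes a protein of the small subunit's head and is the gene most often mutated in Diamond-Blackfan anaemia, had the smallest unadjusted p among the members. Its level was 68.8, 68.3 and 69.7 CPM in the controls and 90.7, 84.3 and 76.9 CPM in shDNAJB1 1 to 3. The controls sat within a narrow band, 68.9 ± 0.722 CPM (SD, n = 3), and all 3 shDNAJB1 libraries lay above it, at 84.0 ± 6.91 CPM (SD, n = 3). The log2 difference was 0.28 ± 0.11 (SE; edgeR adjusted p = 0.765). Without shDNAJB1 1 the log2 difference was 0.22.

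Rps27, a zinc-finger protein of the small subunit, was at 51.9, 53.4 and 56.1 CPM in the controls and at 63.2, 62.6 and 58.4 CPM in the libraries labelled shDNAJB1. Its lowest shDNAJB1 library was only just above its highest control, and the log2 difference was 0.19 ± 0.10 (SE; edgeR adjusted p = 0.770). Rps18, which lies at the contact between the subunits, was at 76.2, 76.1 and 77.5 CPM against 98.1, 87.1 and 79.0 CPM. Here too the controls were tight and shDNAJB1 3 was close to them, with a log2 difference of 0.20 ± 0.11 (SE; edgeR adjusted p = 0.776). Rpl34, a protein of the large subunit, was at 38.1, 34.1 and 37.5 CPM against 44.7, 38.6 and 38.7 CPM. Its groups were barely separate, shDNAJB1 2 and shDNAJB1 3 lying just above control 1, with a log2 difference of 0.15 ± 0.11 (SE; edgeR adjusted p = 0.814). Without shDNAJB1 1 the log2 differences of Rps27, Rps18 and Rpl34 were 0.17, 0.11 and 0.08.

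In the large subunit the 5 genes with the smallest unadjusted p were Rpl41, Rpl35a, Rpl37a, Rpl9 and Rpl13a, and in each of them the groups overlapped. Rpl41, which encodes the shortest ribosomal protein, 25 residues long, was at 89.4, 93.7 and 85.2 CPM against 118, 100.5 and 93.6 CPM. Rpl35a, another Diamond-Blackfan gene, was at 70.2, 77.9 and 71.7 CPM against 102, 80.6 and 76.4 CPM. In both, shDNAJB1 1 was the highest library and shDNAJB1 3 lay inside the control range; the log2 differences were 0.22 and 0.23, and without shDNAJB1 1 they were 0.12 and 0.10.

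The same order recurred in the other large-subunit genes of that group. Rpl37a, a zinc-binding protein, was at 65.7, 59.5 and 54.1 CPM against 75.1, 67.7 and 63.5 CPM. Rpl9, a protein of the stalk base, was at 169, 175 and 161 CPM against 215, 187 and 173 CPM. Rpl13a, which is known for a role in silencing inflammatory transcripts when released from the ribosome, was at 253, 265 and 239 CPM against 332, 272 and 264 CPM. The log2 differences of these 3 genes were 0.20, 0.19 and 0.20, with SE of 0.12 to 0.13, and without shDNAJB1 1 they were 0.13, 0.10 and 0.09. In each of the 3, shDNAJB1 1 was highest and shDNAJB1 3 fell within the range of the controls.

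Core genes moved together from library to library, in both groups. Each core gene was expressed as its log2 CPM minus its mean over the 6 libraries. In shDNAJB1 1, 75 of the 77 core genes were above their own mean, with a median of 0.21, and 58 had their highest value there. In control 1, 59 were above, with a median of 0.09, and 16 had their highest value there. By contrast only 8 were above their mean in control 2 (median -0.08), 1 in control 3 (median -0.12) and 8 in shDNAJB1 3 (median -0.08). In shDNAJB1 2 the count was 43, with a median of 0.00. Thus, on the TMM scale, 1 library of each group was high, and shDNAJB1 3 was as low as control 2. This order depended on the scaling. As a share of all counts, the members took more in shDNAJB1 2 (1.03%) than in control 1 (1.00%). They also took more in shDNAJB1 3 (0.960%) than in control 2 (0.936%) or control 3 (0.908%).

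**Figure D2:**
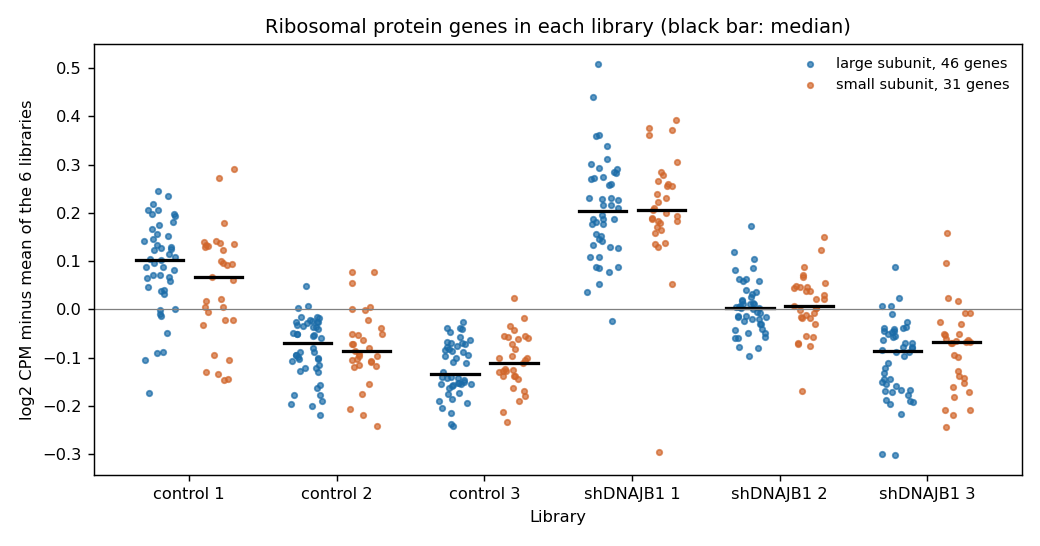
Log2 CPM of each core gene minus its mean over the 6 libraries, by library and subunit (points: 46 large-subunit and 31 small-subunit genes, black bars: medians). Both subunits are high in shDNAJB1 1 (medians 0.20 and 0.21) and in control 1 (medians 0.10 and 0.07), and low in control 2, control 3 and shDNAJB1 3.

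The spread within shDNAJB1 1 was wide. Rpl38, a large-subunit protein known from mouse work for its part in the translation of Hox messages, stood highest there, 0.51 above its mean. Its level was 54.1, 44.4 and 44.5 CPM in the controls and 73.6, 51.9 and 46.6 CPM in the shDNAJB1 libraries, so that the last 2 lay between control 2 and control 1. Its log2 difference of 0.27 ± 0.18 (SE) was the largest of the core large subunit and was 0.04 without shDNAJB1 1. Rplp1, Rps20 and Rps28 followed in that library, at 0.44, 0.39 and 0.38 above their means.

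Among the core genes, only Rps15a and Rpl15 were below their mean in shDNAJB1 1. Rps15a, a small-subunit protein, was 0.30 below it. Its level was 156, 141 and 148 CPM in the controls and 119, 153 and 163 CPM in shDNAJB1 1 to 3, so shDNAJB1 1 was its lowest library and shDNAJB1 3 its highest. It was the only core gene lowest in shDNAJB1 1, and its log2 difference of -0.03 ± 0.14 (SE) was 0.09 without that library, 0.01 without control 1 and 0.03 when scaled to library totals only. Rpl15, a large-subunit protein, was at 132, 117 and 115 CPM in the controls and at 116, 119 and 111 CPM in the shDNAJB1 libraries, where only control 1 stands out.

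Leaving out 1 library moved both subunits together. Without shDNAJB1 1 the median log2 difference was -0.01 for the large subunit and 0.01 for the small, and 36 of the 77 core genes (19 large, 17 small) were higher. Without control 1 the medians were 0.15 and 0.14, and 76 of the 77 were higher. Members higher at an unadjusted p under 0.05 then numbered 5 of 84, against 2.04% of all genes in that fit. They numbered 0 without control 2 (3.42% of all genes), control 3 (3.19%), shDNAJB1 1 (6.08%) or shDNAJB1 2 (1.78%), and 2 without shDNAJB1 3 (1.74%). Scaling to library totals only gave medians of 0.13 and 0.16 and 5 of 84 members higher at an unadjusted p under 0.05, against 4.3% of all genes. In that scaling 94.0% of the members were higher, against 81.0% with TMM. Of all genes 61.2% were higher in it, with a median of 0.07, against 50.8% with TMM.

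**Figure D3:**
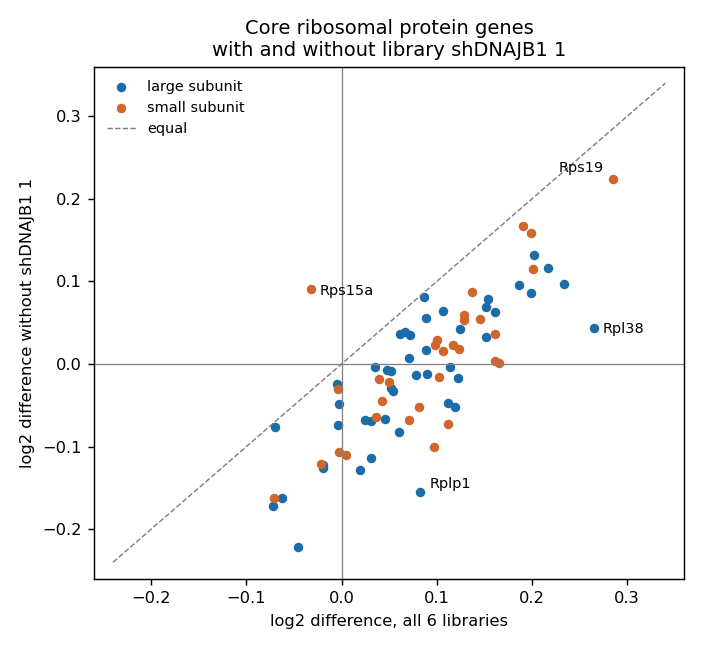
Log2 difference of the 77 core genes with all 6 libraries (x axis) and without shDNAJB1 1 (y axis); the dashed line marks equal values. Rps15a stands alone above the line, and 36 of 77 genes lie above 0 on the y axis, where Rps19 is highest at 0.22.

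Large and small subunit transcripts kept nearly the same proportion in all libraries. Summed over members, the large subunit gave 6437, 5658 and 5508 CPM in the controls and 6796, 6001 and 5641 CPM in shDNAJB1 1 to 3. The small subunit gave 4128, 3730.5 and 3651 CPM in the controls and 4491, 3961 and 3728 CPM in the shDNAJB1 libraries. Both sums followed the same order over the libraries at the top, shDNAJB1 1 and then control 1, and the groups overlapped in both.

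The ratio of large to small was 1.559, 1.517 and 1.509 in the controls and 1.513, 1.515 and 1.513 in the shDNAJB1 libraries. Its mean was 1.528 ± 0.0272 (SD, n = 3) in the controls and 1.514 ± 0.0009 (SD, n = 3) in the shDNAJB1 libraries, a difference of -0.0144 that is smaller than the SD of the controls. Without control 1 the difference was 0.00109. The other 5 libraries lay between 1.509 and 1.517, while their summed large-subunit level ran from 5508 to 6796 CPM.

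**Figure D4:**
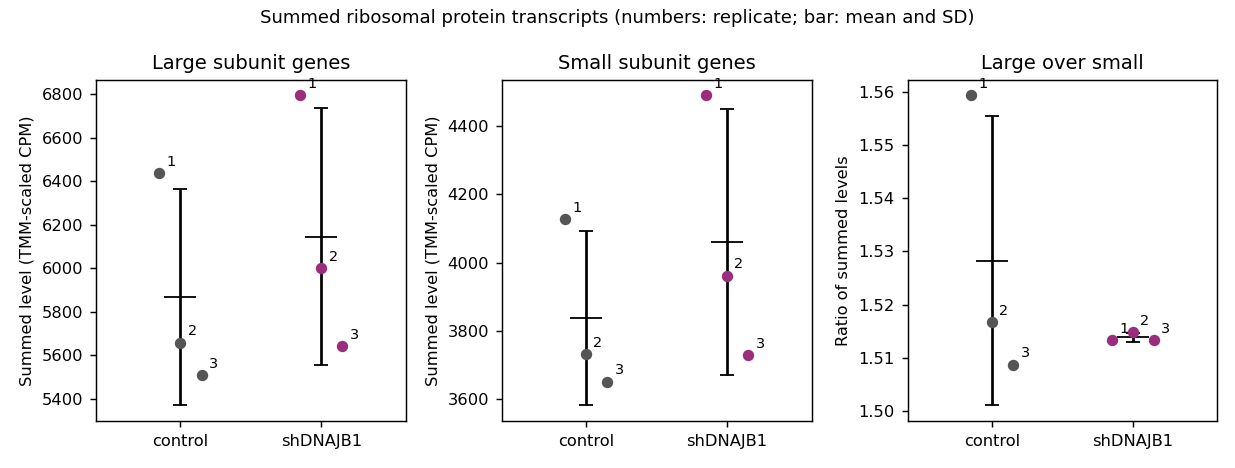
Summed CPM of the large-subunit and small-subunit members and their ratio, for the 3 control and 3 shDNAJB1 libraries (numbers: replicate, bars: mean and SD). The sums are highest in shDNAJB1 1 (6796 and 4491 CPM), and the ratio stands apart only in control 1, at 1.559.

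Among the large-subunit roles, the P stalk recruits the translation factors that hydrolyse GTP. Of its 4 genes 3 were higher and 1 lower, with a median log2 difference of 0.06, and 0 passed the test; without shDNAJB1 1, 0 of the 4 were higher and the median was -0.12. Rplp0, the stalk's base protein and a common reference gene in quantitative PCR, was at 144, 124 and 118 CPM in the controls and at 139, 120.1 and 109.7 CPM in the shDNAJB1 libraries. Its log2 difference was -0.06 ± 0.13 (SE), and it was 0.03 without control 1 and 0.01 without shDNAJB1 3. Rplp1, an acidic stalk protein, was at 156, 138 and 128 CPM against 194, 137 and 116 CPM. Both the highest and the lowest library of Rplp1 were shDNAJB1 libraries; its log2 difference was 0.08 ± 0.19 (SE) and was -0.15 without shDNAJB1 1. Rplp2, the partner of Rplp1, was at 58.0, 53.3 and 51.7 CPM against 67.2, 52.3 and 50.4 CPM, and Rpl12, at the base of the stalk, was at 105, 85.4 and 80.5 CPM against 101, 92.7 and 87.3 CPM.

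Rpl5 and Rpl11 enter the large subunit with the 5S ribosomal RNA and, when free, bind Mdm2 and so restrain the breakdown of p53. Rpl5 was at 159.5, 146 and 130.4 CPM in the controls and at 177, 141 and 128 CPM in the shDNAJB1 libraries. Rpl11 was at 114, 103 and 104 CPM against 129, 109 and 103 CPM. Both genes were highest in shDNAJB1 1 and had overlapping groups, and 0 of the 2 passed the test; without that library both had negative log2 differences.

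The 9 genes of the peptide exit tunnel and its rim had a median log2 difference of 0.03, with 6 higher, 3 lower and 0 past the test. Without shDNAJB1 1, 0 of the 9 were higher and the median was -0.05. Rpl4, which reaches into the tunnel wall, was at 413, 339 and 343 CPM in the controls and at 386, 359 and 348 CPM in the shDNAJB1 libraries. Rpl26, near the tunnel exit, was at 181, 155 and 161 CPM against 180.4, 163 and 152 CPM. For both, control 1 was the highest library. Rpl22 had the lowest log2 difference of the core genes, -0.07 ± 0.12 (SE). It was at 74.9, 71.5 and 67.0 CPM in the controls and at 76.6, 64.8 and 61.7 CPM in the shDNAJB1 libraries, where shDNAJB1 1 was again the highest.

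In the small subunit, 8 genes line the mRNA path and decoding site. Of these 6 were higher and 2 lower, with a median log2 difference of 0.11, and 0 passed the test; without shDNAJB1 1, 4 were higher and the median was -0.02. Rps2 and Rps3, at the mRNA entry, were at 173, 168 and 150.0 CPM and at 205, 194 and 190.0 CPM in the controls. In the shDNAJB1 libraries Rps2 was at 182, 154 and 147 CPM and Rps3 at 239.5, 197 and 203 CPM. Rpsa, the laminin receptor precursor on the subunit's back, was at 319, 241 and 248 CPM in the controls and at 287, 258 and 224 CPM in the shDNAJB1 libraries. Control 1 was its highest library, and its log2 difference of -0.07 ± 0.15 (SE) was 0.08 without control 1 and 0.02 without shDNAJB1 3. Rps14, whose loss with a deleted chromosome arm contributes to a human bone marrow disorder, was at 144, 155 and 152 CPM against 186, 160.2 and 152 CPM.

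Rps6, the substrate of the S6 kinases and a common readout of mTOR activity as a phosphoprotein, was at 193, 167 and 173 CPM in the controls and at 201, 178 and 172 CPM in the shDNAJB1 libraries. Its groups overlapped, with a log2 difference of 0.05 ± 0.12 (SE) that was -0.02 without shDNAJB1 1. Rps27a, which is made as a fusion with ubiquitin, was at 131, 117 and 114 CPM against 145, 129.8 and 121 CPM. Of the ribosomal protein genes that the symbol rule does not reach, Fau, made as a fusion with a ubiquitin-like protein, was at 74.8 ± 9.48 CPM (SD, n = 3) in the controls and at 80.6 ± 14.4 CPM (SD, n = 3) in the shDNAJB1 libraries. Rack1, a signalling scaffold on the small subunit, was at 107 ± 8.60 CPM (SD, n = 3) in the controls and at 115 ± 7.86 CPM (SD, n = 3) in the shDNAJB1 libraries.

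All 4 X-linked members, Rps4x, Rpl10, Rpl39 and Rpl36a, were higher, with a median log2 difference of 0.11 and 0 past the test, beside 81.0% of all members higher. Without shDNAJB1 1, 3 of the 4 were higher, with a median of 0.05, and Rpl39 was at -0.02. Rpl10, which joins the large subunit late and is mutated in forms of human intellectual disability, was at 163, 165 and 155 CPM in the controls and at 173, 178 and 152 CPM in the shDNAJB1 libraries. Its log2 difference was 0.06 ± 0.11 (SE). Rps4x was at 197, 178 and 166 CPM against 215, 197 and 179.5 CPM. In both genes shDNAJB1 3 lay within or below the control range. Of the 18 genes mutated in Diamond-Blackfan anaemia, Rps19 and Rps27 among them, 15 were higher and 3 lower, with a median of 0.09 and 0 past the test; without shDNAJB1 1, 6 were higher and the median was -0.04.

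Paralogs ran in level from 0 counts to 102% of the counts of their parent gene. Rpl10l and Rpl39l, known as testis-expressed retrogenes, had 0 counts in all 6 libraries, which allows up to 0.0769 to 0.122 CPM per library at a floor of 3 counts; both were therefore not tested. Rpl3l, the striated-muscle form of Rpl3, was at 0.796, 0.554 and 0.333 CPM in the controls and at 0.608, 0.287 and 0.282 CPM in the shDNAJB1 libraries. That is 0.0674% to 0.179% of the counts of Rpl3, and its wide interval is that of a gene with few counts. Rpl22l1 had 72.7% to 102% of the counts of Rpl22, at 63.6, 53.9 and 54.4 CPM against 55.7, 60.9 and 62.7 CPM. It was highest relative to Rpl22 in shDNAJB1 3, at 102%, and lowest in shDNAJB1 1, at 72.7%, so the shDNAJB1 libraries lay on both sides of the controls.

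Rps27rt carried the highest log2 difference of all members, 0.32 ± 0.20 (SE), at 8.37, 10.1 and 8.78 CPM in the controls and 13.0, 12.6 and 8.46 CPM in the shDNAJB1 libraries. Its groups overlapped. Its coding sequence was identical to that of Rps27 over all 252 bases, and the sources used here do not say how reads fitting both were counted, so its value is uncertain. Rps27l, 76.2% identical to Rps27, is a known p53 target and was at 8.37, 7.69 and 6.95 CPM against 8.96, 6.21 and 7.18 CPM. Rpl36al, 87.7% identical to Rpl36a, was at 36.4, 29.6 and 27.5 CPM against 39.9, 28.5 and 26.1 CPM. Rpl7l1, which acts in ribosome assembly and shares 53.0% with Rpl7, was at 36.2 ± 1.97 CPM (SD, n = 3) against 36.8 ± 0.578 CPM (SD, n = 3). Rps19bp1 was at 7.81 ± 0.681 CPM (SD, n = 3) against 8.01 ± 0.996 CPM (SD, n = 3), and in all of these paralogs that had counts the groups overlapped.

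Levels within the core set were compared per kilobase of the shortest principal transcript, as the mean CPM of the 6 libraries per kilobase. The core large subunit ran from 63.2 (Rpl39) to 314 CPM per kilobase (Rpl26), with a median of 151. The core small subunit ran from 19.5 (Rps20) to 359 CPM per kilobase (Rps15), with a median of 164. The low value of Rps20 goes with a principal transcript annotated at 3706 bases for a protein of 119 residues. For 33 of the 77 core genes the annotation gives several principal lengths, and the order moved with the choice: with the longest one Rpl3 and Rps15 were highest, and with all exonic bases Rplp1 and Rps15 were.

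**Figure D5:**
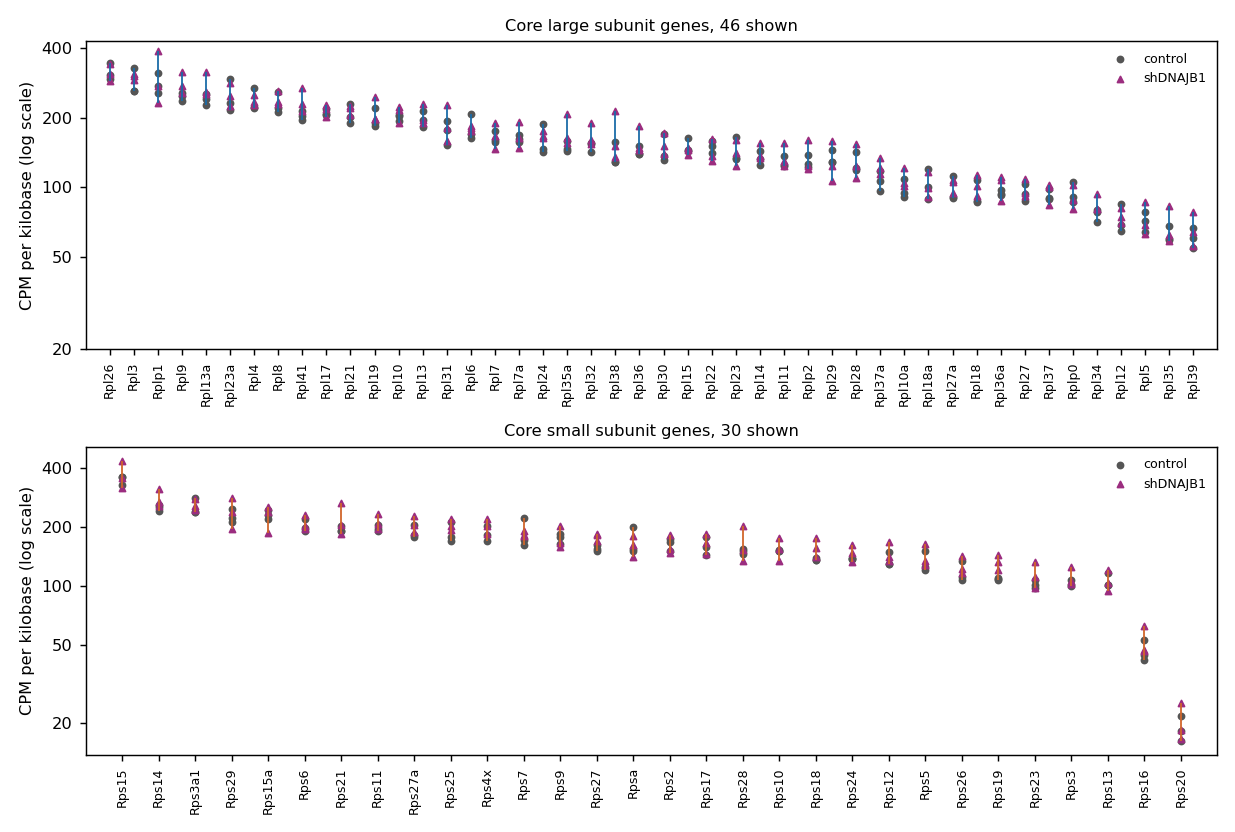
CPM per kilobase of principal transcript (log scale) for the core large-subunit and small-subunit genes shown, in each of the 6 libraries, genes ordered by mean. Rps15 (359) and Rpl26 (314) lead and Rps20 (19.5) is lowest, and control and shDNAJB1 points of a gene lie close together.

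The core genes share features that the symbol rule did not use. They sit on 19 chromosomes, encode proteins of 25 to 419 residues (median 152) and have principal transcripts of 271 to 3706 bases (median 729). Within their span, on the same strand, 30 of the 77 (39.0%) hold 58 small nucleolar RNA genes, which guide ribosomal RNA modification, against 1.18% of 22028 protein-coding genes. Rpl4 holds the most, 5, and Rpl13a holds 4. Core genes with a pyrimidine run at the start (27) had a median log2 difference of 0.11, with 24 higher, and those without one (30) had a median of 0.07, with 21 higher. Without shDNAJB1 1 the medians were 0.00 and -0.02, and no test was made of the difference.

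Transcript length moved with the values. The 28 core genes with transcripts up to 600 bases had a median log2 difference of 0.11, with 24 higher. Those of over 600 and up to 1000 bases (32) had a median of 0.08, and those over 1000 bases (17) a median of 0.05. Without shDNAJB1 1 the 3 medians were -0.01, 0.00 and -0.02. Among the other tested genes with a principal coding transcript the medians in the same classes were 0.05 (237 genes), 0.01 (801) and -0.02 (13944). Over the 77 core genes Pearson's r of log2 length with the log2 difference was -0.32, as a description over genes that share the same libraries. With the deviation in a library, r was 0.43, -0.03 and -0.15 in controls 1 to 3. In shDNAJB1 1 to 3 it was -0.22, -0.20 and 0.02, so it was furthest from 0 in control 1. In shDNAJB1 1 the core genes up to 600 bases stood 0.26 above their means and the longer core genes 0.19. Other genes there stood at 0.23 (up to 600 bases), 0.15 (up to 1000) and -0.01 (over 1000). In control 1 the short core genes stood 0.03 above and the longer ones 0.10. Other genes in control 1 stood at 0.08 (up to 600 bases), 0.13 (up to 1000) and 0.02 (over 1000). In control 2, control 3, shDNAJB1 2 and shDNAJB1 3, other genes up to 600 bases stood at -0.07, -0.06, -0.04 and -0.11. Those up to 1000 bases stood at -0.06, -0.05, -0.05 and -0.09 in these libraries. The part of transcript length in the library pattern was not tested.

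Cell markers also differed between libraries. The 8 endothelial markers summed to 520.2 CPM in shDNAJB1 1 and to 313 to 371 CPM in the other 5 libraries, 7 of the 8 having a positive log2 difference (median 0.17), and 3 of the 8 without shDNAJB1 1. The 8 microglial markers summed to 357, 542 and 280.4 CPM in the controls and to 594, 227 and 187 CPM in the shDNAJB1 libraries. All 12 oligodendrocyte markers had a negative log2 difference (median -0.52), their sum running from 15347 to 16516 CPM in the controls and from 8911 to 16133 CPM in the shDNAJB1 libraries. All 8 general neuron markers did too (median -0.14), with sums of 6518 to 7767 CPM against 5399 to 6173 CPM. Without shDNAJB1 1, 3 of the 8 neuron markers were higher, against 0 of the 12 oligodendrocyte markers. Of the 8 astrocyte markers 6 had a negative log2 difference (median -0.23), with sums of 3850 to 5052 CPM against 3295 to 4156 CPM. All 5 blood markers did as well (median -0.58), their sum running from 105 CPM in shDNAJB1 1 to 379 CPM in control 1. The 6 GABAergic markers summed to 1689, 1316 and 1309 CPM in the controls and to 1749, 1059 and 506 CPM in shDNAJB1 1 to 3. Of them 3 had a positive and 3 a negative log2 difference (median -0.16). No marker of these cell types was at 0 in all libraries. shDNAJB1 1, where the ribosomal protein genes were highest, was also the smallest library, and control 1, the next highest on the TMM scale, was the largest. The part of these cell types and of depth in the ribosomal protein values was not tested.

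Other gene lists linked to translation had medians at or just below 0. Of 16 genes known to carry the same kind of start, translation factors and others, 8 were higher and 8 lower, with a median log2 difference of 0.00. Of 32 ribosome biogenesis factors 15 were higher and 17 lower, with a median of -0.01, and of 12 regulators of ribosomal protein synthesis 6 were higher and 6 lower, with a median of -0.03. The 78 mitochondrial ribosomal protein genes, whose products form the separate ribosome of that organelle, had 33 higher and 45 lower, with a median of -0.02; without shDNAJB1 1, 16 were higher and 62 lower, with a median of -0.12. In all 4 lists 0 genes passed edgeR's adjusted test. Larp1, the RNA-binding protein that holds these transcripts when mTOR is inactive, was at 191 ± 10.1 CPM (SD, n = 3) in the controls and at 160.1 ± 25.1 CPM (SD, n = 3) in the shDNAJB1 libraries. The groups of Larp1 overlapped, with control 1 at 179.8 CPM and shDNAJB1 3 at 180.5 CPM, and shDNAJB1 1 was lowest at 132 CPM. Its log2 difference was -0.25 ± 0.14 (SE; edgeR adjusted p = 0.775). Pabpc1, a poly(A)-binding protein, was at 109 ± 2.71 CPM (SD, n = 3) and 99.8 ± 6.73 CPM (SD, n = 3), with overlapping groups. Among the 12 regulators, the groups were separate with shDNAJB1 higher in 1 gene, Rps6kb2, against 6.98% of all genes. Its log2 difference was 0.31 ± 0.15 (SE, edgeR adjusted p = 0.770). They were separate with shDNAJB1 lower in 1, Eif4ebp2, against 7.06% of all genes. The log2 difference of Eif4ebp2 was -0.14 ± 0.11 (SE, edgeR adjusted p = 0.821). Whether the ribosomal protein genes differ from these lists was not tested.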

How the data were processed

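Libraries of total substantia nigra RNA were stranded (TruSeq), per the labels' protocols. For each library the authors deposited whole-number counts of Ensembl genes, not normalized. The submitters' processing notes name STAR 2.5.3a, FastQC 0.11.5, DESeq 1.16.1, Cuffnorm and the build mm10. The sources used here do not name the counter, annotation release or strand setting. GENCODE M21 (GRCm38) matched 55154 of 55335 identifiers. Of the 77 core genes, 27 share exonic bases with a gene on the same strand and 18 with one on the opposite strand, and 75 have pseudogene copies, so single values can hold reads of another locus.

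Groups came from the sample titles. With edgeR 4.0.16 (R 4.3.3), filterByExpr kept genes by a minimum count of 10 and a total of 15, TMM set the scale, and the quasi-likelihood test used all 6 libraries and no covariate, with Benjamini-Hochberg adjustment over 18870 genes at 0.05. The biological coefficient of variation was 24.1%. Intervals are 95%. DESeq2 1.42.0, limma 3.58.1, other scalings and filters, each library left out, a replicate block and added pseudogene counts were alternatives; adding counts of aligned copies, other transcript lengths, the split by length and the lists without shDNAJB1 1 were chosen after seeing the data. Copies were found with blastn 2.17.0 (at least 90% identity over 80% of the transcript), and figures drawn with matplotlib 3.10.9. Promoter windows are RefSeq's. The scripts were checked on simulated data.

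Members and lists were chosen with earlier results of these data known. Named members are those of the role lists, the 5 of each subunit with the smallest unadjusted p, the highest and lowest per kilobase, and those not tested; some of these genes are not reported here, singly or in the plots that name genes, though counts and medians include them. Rpl34, for its separate groups, and Rpl38, Rplp1, Rps20, Rps28, Rps15a and Rpl15, for their deviations, were named after these values were seen. Labels give no batch or date.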

Additional observations from a re-analysis of the deposited data

How the results depend on the processing

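All 17 settings left 0 ribosomal protein genes with an adjusted p under 0.05. The median log2 difference ran from -0.01 to 0.15 for the large subunit and from 0.01 to 0.18 for the small as each library was left out, and the replicate block gave 0.06 and 0.10. Over all tested genes, deviations of same-numbered libraries correlated at 0.04, -0.02 and 0.08. The median deviation of the core genes nevertheless fell from replicate 1 to replicate 3 in both groups. It was 0.09, -0.08 and -0.12 in the controls and 0.21, 0.00 and -0.08 in the shDNAJB1 libraries. The labels do not say whether the replicate numbers pair the libraries. Members with an unadjusted p under 0.05 numbered 1, and 0 to 5 as each library was left out, 5 with library totals only and 0 with DESeq2. The ratio difference, -0.0144, ran from -0.0242 to 0.00109 as each library was left out. Of 18 genes whose log2 difference was followed, 13 kept their direction under every setting. Many of the 18 were named for small p-values, separate groups or extreme values, so this share does not stand for all members. Among the 77 core genes 63 were higher with all libraries and 36 without shDNAJB1 1. Leaving out each library in turn gave -0.162 to 0.0324 for Rplp0, -0.155 to 0.236 for Rplp1, -0.162 to 0.0754 for Rpsa, -0.0220 to 0.121 for Rps6 and -0.123 to 0.0904 for Rps15a, and library totals only gave 0.0306 for Rps15a; beyond fewer libraries, the cause was not tested. Depth limits Rpl3l, Rpl10l and Rpl39l most; every core gene had at least 984 counts per library. The ratio has no DESeq2 or limma value.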

Other observations

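Processed copies of ribosomal protein genes are common in the mouse genome, and 1111 annotated pseudogene loci aligned to member transcripts, of which 830 had counts. Their counts came to 14.3% to 14.7% of the members' own counts in each library, so the share was steady while the members' level was not. All but 2 of the 77 core genes had such copies. The copies of Rpl31, a large-subunit protein at the tunnel rim, had 49.8% of its counts, those of Rps6 had 46.1%, and those of Rplp2, with 1 copy, had 0.0194%. With these counts added, the median log2 difference was 0.07 for the large subunit and 0.10 for the small. The sources used here do not say how reads fitting both a gene and its copies were treated.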
